A study of Mus musculus with 4 samples.

Results

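The cholesterol genes described here are 8 genes chosen by name: the synthesis enzymes *Hmgcs1*, *Idi1*, *Fdps*, *Fdft1*, *Sqle* and *Lss*, and the regulators *Srebf2* and *Insig1*. All 8 were found by symbol among the 18598 genes listed for LSK cells, a sorted lineage-negative, Sca1+ and c-Kit+ bone marrow fraction that contains hematopoietic stem and progenitor cells. None of the 8 encodes a receptor, so cholesterol uptake is described from a separate gene list. Each genotype, Bptf cKO and control, is represented by 2 RNA-seq libraries, and each library was made from 5 pooled C57BL/6 mice of about 3 months of age. The Bptf cKO mice (labelled Bptf -/-) carry floxed *Bptf* alleles and *Mx1*-cre, and the study gives the controls used for RNA-seq as Bptf f/f mice. All mice received polyinosinic-polycytidylic acid (pIpC), which turns on the interferon-responsive *Mx1* promoter, and cells were sorted 10 days after cre induction. The controls were thus treated with pIpC but are not described as carrying cre, so an effect of cre itself and the loss of *Bptf* cannot be told apart. Mice were pooled, so the spread between libraries is a spread between pools.

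Cells make cholesterol from acetyl-CoA through mevalonate, the isoprenoids isopentenyl and farnesyl pyrophosphate, squalene and lanosterol. The transcription factor SREBP2, encoded by *Srebf2*, is held in the endoplasmic reticulum by INSIG proteins when sterols are plentiful, and is released, cleaved and sent to the nucleus when they are scarce. There it raises the genes of this pathway together, and *Insig1* is itself among its targets, which closes a feedback loop. In the opposite direction, oxysterols activate the LXR receptors, which raise cholesterol export through *Abca1* and *Abcg1*. Blood stem and progenitor cells are known to respond to cholesterol efflux through these transporters.

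Depth ranged from 14091054 to 30134742 reads on listed genes per library, and in both genotypes replicate 1 was the deeper library. Values are normalized counts, that is, gene counts divided by a size factor for each library. The targeted gene, *Bptf*, had 5520 and 5850 normalized counts in the control libraries and fell to 3398 and 3320 with the deletion (log2 difference -0.76, limma adjusted p = 0.0439). This is a count over the whole gene, whereas the deletion removes exon 2. Its adjusted p lay between 0.0647 and 0.316 when any 1 library was left out, with the lower value without Bptf f/f replicate 1 and the upper without Bptf cKO replicate 2. All 8 LSK marker genes checked, *Kit* and *Ly6a* included, were detected, with summed levels of 49031 to 56330 in Bptf f/f and 40881 to 43670 in Bptf cKO. The 6 erythroid markers had summed levels of 1017 to 1789 in Bptf f/f and 192 to 253 in Bptf cKO. Of these, 1, *Epor*, passed in limma (adjusted p = 0.0443), and 5 of 6 had both Bptf cKO libraries below both Bptf f/f libraries, against 23.8% of all tested genes, while *Slc4a1* overlapped. The 8 granulocyte and monocyte markers summed to 11221 in Bptf f/f replicate 2, which stands apart from the 37319 to 72537 of the other libraries. B cell markers summed to 6285 in Bptf f/f replicate 1 and to between 1617 and 3407 in the other libraries, and macrophage markers to 813 in Bptf cKO replicate 2 and to between 217 and 394 in the others. The 3 listed T and NK cell markers summed to 1959 and 1235 in Bptf f/f and to 2295 and 2303 in Bptf cKO. None of these B cell, macrophage, T or NK cell markers passed in limma, and *Ms4a1* was under 10 normalized counts in every library. In bulk RNA, fewer cells of a type and less RNA per cell cannot be told apart. The part of these markers in the results below was not tested.

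The promoters of *Insig1* and *Hmgcs1* are shown because both are textbook SREBP2 targets, of which the former was lower in Bptf cKO cells in both libraries while the latter overlapped, and that of *Srebf2* because it encodes the factor. RefSeq promoters (GRCm38.p6) were matched by symbol for 5 of the 8 genes, *Hmgcs1*, *Idi1*, *Insig1*, *Lss* and *Srebf2*. Each sequence below is on the plus strand and 5′ to 3′, begins 250 bases upstream of the RefSeq start, and stops before the first transcribed base of RefSeq or GENCODE. Capitals mark matches, on either strand, to the sterol regulatory element form TCACNCCAC, to the NF-Y box CCAAT and to the GC box GGGCGG, and no matches overlapped.
Insig1, chr5:28071162-28071362: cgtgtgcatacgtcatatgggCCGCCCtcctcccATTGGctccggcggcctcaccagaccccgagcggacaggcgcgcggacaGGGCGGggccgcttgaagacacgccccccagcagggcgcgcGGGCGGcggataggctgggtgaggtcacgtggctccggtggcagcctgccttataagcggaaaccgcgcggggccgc
Hmgcs1, chr13:119690101-119690350: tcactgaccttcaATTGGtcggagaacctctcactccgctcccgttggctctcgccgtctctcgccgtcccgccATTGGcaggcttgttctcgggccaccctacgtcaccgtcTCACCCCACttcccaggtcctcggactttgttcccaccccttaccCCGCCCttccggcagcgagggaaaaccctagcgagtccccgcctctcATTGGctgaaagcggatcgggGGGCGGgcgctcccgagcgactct
Srebf2, chr15:82147019-82147180: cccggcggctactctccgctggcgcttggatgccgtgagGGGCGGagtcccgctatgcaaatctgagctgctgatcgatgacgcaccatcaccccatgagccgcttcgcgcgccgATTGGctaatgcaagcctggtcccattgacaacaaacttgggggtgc

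TCACNCCAC was found in 1 of these 5 promoters over the 250 bases upstream of the start, that of *Hmgcs1*, where it begins 137 bases upstream, and in 1.05% of the 32851 RefSeq promoters of the same length. A CCAAT match was found in 5 of 5 against 33.8% of all promoters, and a GGGCGG match in 5 of 5 against 32.7%. These counts run to the RefSeq start, further than the stretches printed. All matches of *Idi1* (CCAAT 45 and 14 and GGGCGG 69 bases upstream of the RefSeq start) lie past its GENCODE start. So do the *Srebf2* GGGCGG matches 79, 52 and 34 bases upstream of the RefSeq start. *Hmgcs1* had 3 CCAAT matches, beginning 237, 176 and 45 bases upstream, and *Insig1* had 1, beginning 216 bases upstream. Only the form TCACNCCAC of the sterol regulatory element was searched, and near matches were neither counted nor marked. These are matches of letters, and binding was not measured in these data.

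Of the 8 cholesterol genes, the 2 regulators were lower in both Bptf cKO libraries, short of the threshold. This 2 of 8 is near the 23.8% of all tested genes with that position. Each of the 6 enzymes had values that overlapped between the genotypes. *Insig1* was at 51.3% of its Bptf f/f level in Bptf cKO and *Srebf2* at 85.1%, each with both Bptf cKO libraries below both Bptf f/f libraries. The enzymes had mean levels in Bptf cKO between 80.6% (*Fdps*) and 104% (*Hmgcs1*) of Bptf f/f. None of the 8 passed an adjusted p of 0.05 in limma, the main test, against 0.74% of the 14858 genes tested. At an unadjusted p under 0.05, 2 of 8 were lower and 0 higher, against 8.96% and 6.79% of all tested genes. The edgeR quasi-likelihood test on recovered reads called 0 of 8, against 0.633% of all genes. The DESeq2 Wald test called 1 of 8, *Insig1*, which was lower, against 5.44% of all genes called in either direction and 3.3% called lower. With the replicate number as a block, limma called 14.4% and edgeR 14.3% of all genes, and the calls of that setting are given with the other alternatives. Both Bptf cKO libraries lay below both Bptf f/f libraries for 2 of 8 genes and for 23.8% of all tested genes, and above them for 0 of 8 and for 23.2%. The median log2 difference of the 8 was -0.16, beside 0.0010 over all tested genes.

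**Figure D1:**
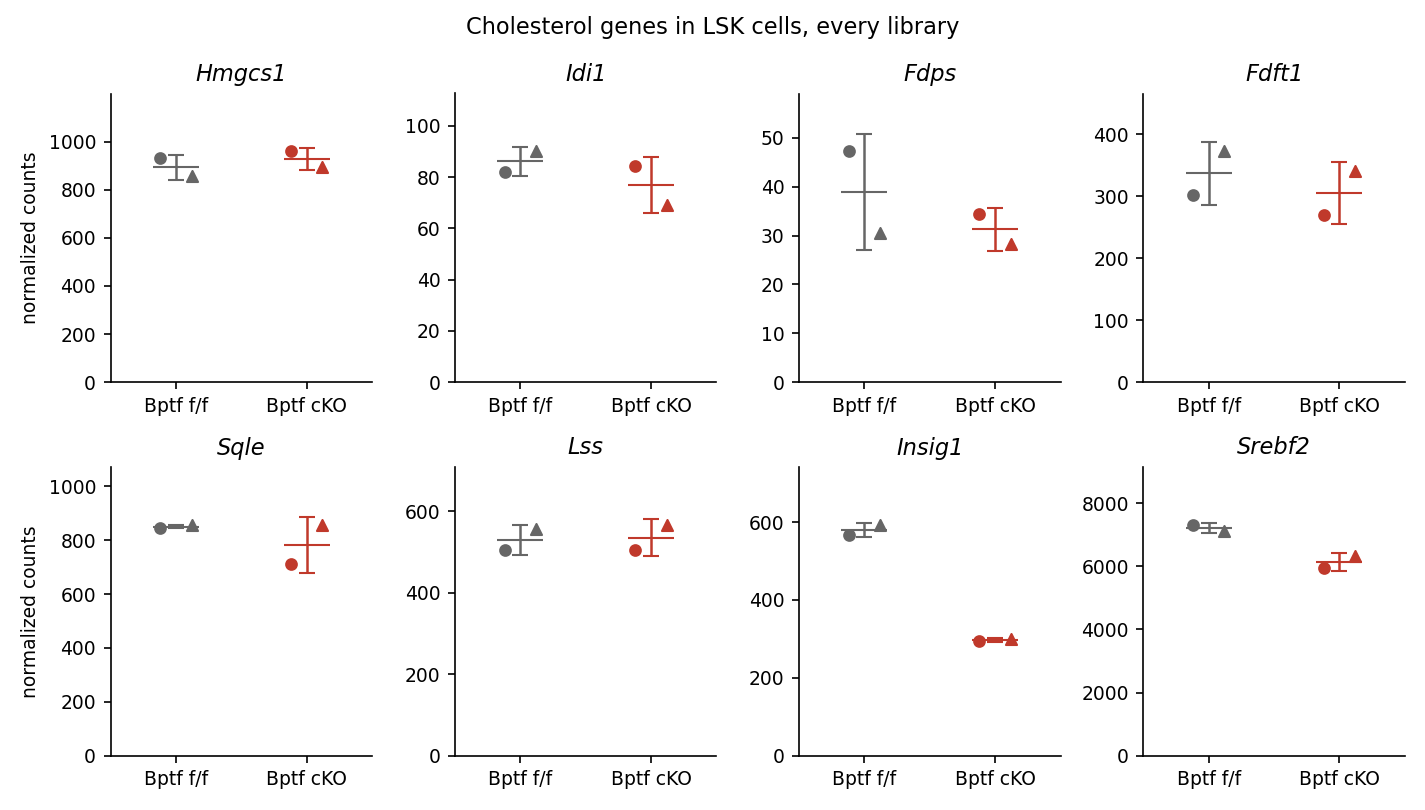
Normalized counts (linear axes from 0) of the 8 cholesterol genes in Bptf f/f (grey) and Bptf cKO (red) LSK cells, with circles for replicate 1, triangles for replicate 2, and the mean ± SD of the 2 libraries as a bar with whiskers. *Insig1* lies at 567 and 593 in Bptf f/f and at 294 and 301 in Bptf cKO, whereas the groups overlap in each of the 6 enzymes.

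*Insig1*, on chromosome 5 from 28071363 to 28078662 of GRCm38 (plus strand, GENCODE vM21), encodes the endoplasmic reticulum protein that retains the SREBP escort SCAP when sterols are abundant. It had 567 and 593 normalized counts in the Bptf f/f libraries and 294 and 301 in the Bptf cKO libraries. The libraries of each genotype lay close together and the genotypes were far apart, with means of 580 ± 18.8 and 297 ± 4.32 (SD, n = 2 each). The log2 difference was -0.96 (standard error 0.14, 95% interval -1.31 to -0.61, limma adjusted p = 0.0632), so *Insig1* missed the threshold in the main test. DESeq2 gave it an adjusted p of 1.58e-04 and edgeR 0.0766, and over the 15 alternatives the adjusted p ranged from 1.58e-04 to 0.395 while the log2 difference stayed between -0.99 and -0.91. The counts behind these values were 731 and 428 reads in Bptf f/f and 453 and 213 in Bptf cKO. Of the 50-base stretches of its longest coding transcript, 2.49% also occur in transcripts of another annotated gene.

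*Srebf2*, on chromosome 15 from 82147181 to 82205379 (plus strand), encodes SREBP2 itself. Its normalized counts were 7321 and 7111 in Bptf f/f and 5936 and 6345 in Bptf cKO. Both Bptf cKO libraries were lower, with means of 7216 ± 148 in Bptf f/f and 6141 ± 289 in Bptf cKO (SD, n = 2 each). The log2 difference was -0.23 (standard error 0.091, 95% interval -0.46 to -0.0043, limma adjusted p = 0.309), which did not pass. No alternative brought it under 0.05, with adjusted p values from 0.0948 to 0.819.

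The enzymes are given in the order of the pathway. *Hmgcs1*, on chromosome 13 from 119690379 to 119708260 (plus strand), makes HMG-CoA at the start of the mevalonate route and had 931 and 857 normalized counts in Bptf f/f and 960 and 896 in Bptf cKO. Replicate 1 was the higher library in both genotypes, and the log2 difference was 0.055 (standard error 0.12, 95% interval -0.24 to 0.35, limma adjusted p = 0.883). *Idi1*, on the same chromosome from 8885501 to 8892451 (plus strand), interconverts the isoprenoid building blocks and had 82.2 and 90.1 normalized counts in Bptf f/f and 84.5 and 69.1 in Bptf cKO. Its interval was wider, from -0.86 to 0.52 around a log2 difference of -0.17 (limma adjusted p = 0.832), from 49 to 130 reads per library.

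*Fdps*, on chromosome 3 from 89093588 to 89101959 (minus strand), makes farnesyl pyrophosphate, the last intermediate shared by sterols and protein prenylation. It was the least sequenced of the 8, with 47.3 and 30.5 normalized counts in Bptf f/f and 34.4 and 28.2 in Bptf cKO, from 20 to 61 reads per library. The log2 difference of -0.28 had a 95% interval of -1.31 to 0.76 (limma adjusted p = 0.813), so a change beyond 2-fold downward is not excluded by these libraries. The values of *Fdps* are uncertain for a further reason: 86.4% of the 50-base stretches of its longest coding transcript also occur in transcripts of 8 other annotated genes, and how such reads were counted is not given in the sources used here. The share was 30.5% for *Idi1*, from 5 other genes, 30.7% for *Fdft1*, mainly from *Ctsb* on the opposite strand, and 13.6% for *Hmgcs1*, from *Gm48342* on the opposite strand.

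*Fdft1*, on chromosome 14 from 63145150 to 63179578 (minus strand), makes squalene, the first step committed to sterols, and had 302 and 373 normalized counts in Bptf f/f and 270 and 341 in Bptf cKO. Replicate 2 exceeded replicate 1 by more than the genotypes differed, and the log2 difference was -0.14 (95% interval -0.66 to 0.38, limma adjusted p = 0.810). *Sqle*, on chromosome 15 from 59315077 to 59331192 (plus strand), oxidises squalene and is a rate-limiting enzyme of the later pathway. It had 846 and 855 normalized counts in Bptf f/f and 710 and 858 in Bptf cKO, a log2 difference of -0.12 (95% interval -0.47 to 0.23, limma adjusted p = 0.735). The lower mean of *Sqle* in Bptf cKO came from replicate 1 alone, since replicate 2 was above both Bptf f/f libraries. *Lss*, on chromosome 10 from 76531588 to 76557138 (plus strand), closes the ring to lanosterol and had 504.6 and 556 normalized counts in Bptf f/f and 504 and 567 in Bptf cKO, a log2 difference of 0.014 (95% interval -0.35 to 0.38, limma adjusted p = 0.978).

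For 5 of the 6 enzymes the 95% interval excluded a 2-fold change in either direction, and for 3 of them, *Hmgcs1*, *Sqle* and *Lss*, it excluded a 1.5-fold change as well. Over all 14858 tested genes, the interval excluded a 2-fold change for 9308 and a 1.5-fold change for 5829. These intervals are not adjusted for the number of genes. Relative to the mean of the 6 enzymes on the log2 scale, *Insig1* stood 1.02 and 1.11 higher in the Bptf f/f libraries and 0.20 and 0.22 higher in the Bptf cKO libraries. The enzyme mean itself went from 8.13 and 8.11 to 8.002 and 8.02 on that scale. These are descriptions of the 4 libraries, without a test.

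Levels of different genes were compared per kb of the longest coding transcript. In Bptf f/f, *Srebf2* was highest with 1421 ± 29.2 normalized counts per kb, followed by *Sqle* (308 ± 2.23), *Hmgcs1* (258 ± 15.2), *Insig1* (215 ± 6.97), *Lss* (114 ± 7.75) and *Fdft1* (91.2 ± 13.6), each a mean ± SD of n = 2 libraries. *Idi1* (28.5 ± 1.85) and *Fdps* (28.1 ± 8.59) came last and overlapped, whereas the other neighbours in this order did not. In Bptf cKO, *Insig1* (110.3 ± 1.60 normalized counts per kb) was no longer above *Lss* (115 ± 9.52) and overlapped it. The means of the other genes kept their places, although *Sqle* (258 and 311 normalized counts per kb) and *Hmgcs1* (277 and 259) now overlapped, as did *Idi1* and *Fdps*.

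**Figure D2:**
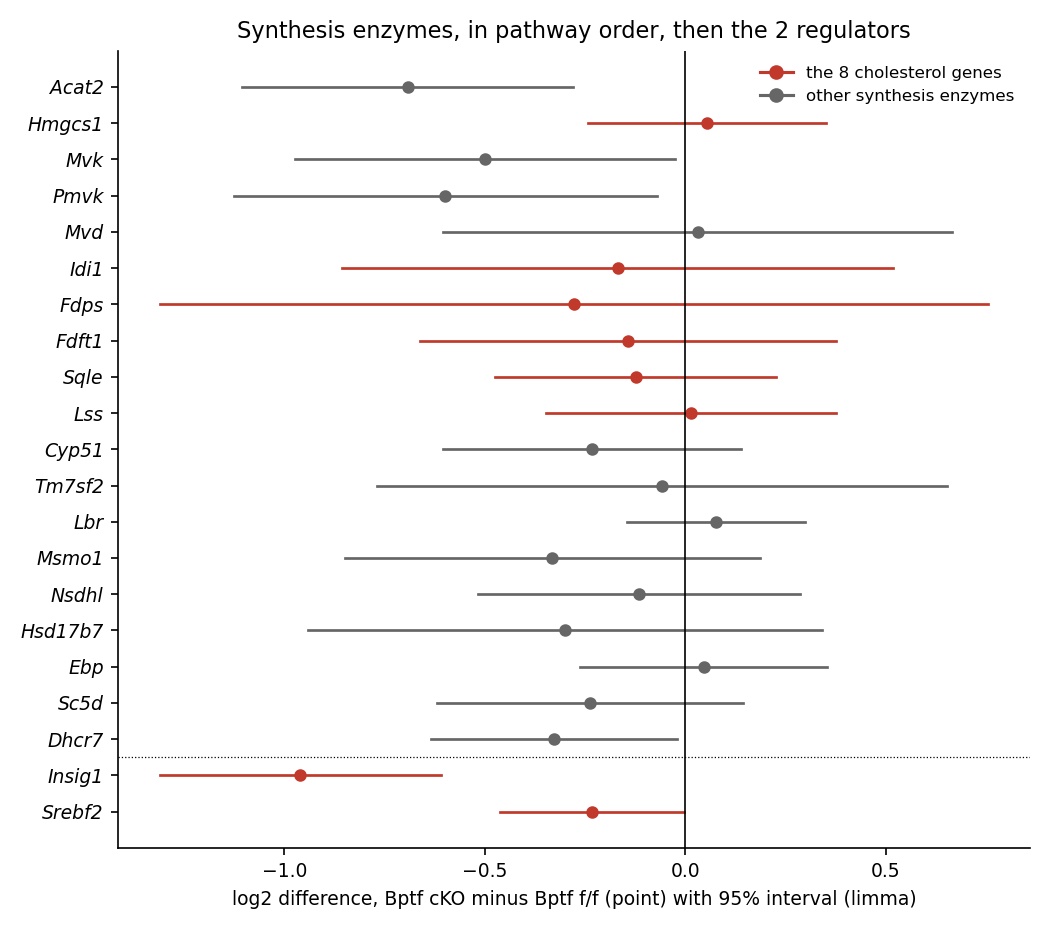
Log2 difference of Bptf cKO minus Bptf f/f (x axis, point) with the limma 95% interval (line) for cholesterol synthesis enzymes in the order of the pathway and, under the dotted line, *Insig1* and *Srebf2*, with the 8 cholesterol genes in red and the other enzymes in grey. The intervals of *Insig1* and *Srebf2* lie below 0, as do those of *Acat2*, *Mvk*, *Pmvk* and *Dhcr7*, whereas those of the 6 red enzymes cross 0.

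Against 0.74% of all tested genes, 0 of the other 14 synthesis enzymes listed passed the threshold in limma. Their median log2 difference was -0.27, 11 of 14 were negative against 49.8% of all tested genes, and 8 of 14 had both Bptf cKO libraries below both Bptf f/f libraries, against 23.8%. At an unadjusted p under 0.05 in limma, 5 of 14 were lower and 0 higher, against 8.96% and 6.79% of all tested genes. *Acat2*, which joins the first acetyl-CoA units, had 443 and 532 normalized counts in Bptf f/f and 296 and 305 in Bptf cKO (log2 difference -0.69, standard error 0.16, limma adjusted p = 0.148). Both Bptf cKO libraries of *Acat2* lay below both Bptf f/f libraries. DESeq2 called 2 of the 14 lower, against 3.3% of all tested genes, *Acat2* among them at an adjusted p of 0.0481, within a range of 0.00885 to 0.653 over the alternatives. Whether the 14 enzymes differed from the 6 was not tested.

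The machinery that senses sterols and processes SREBP showed 0 of 10 genes past the threshold in limma, against 0.74% of all tested genes. DESeq2 called 1 of the 10, against 5.44%, and the median log2 difference was 0.0025. *Scap*, the escort, the site proteases *Mbtps1* and *Mbtps2*, and *Insig2*, the paralog of *Insig1*, had log2 differences of -0.052, 0.063, 0.075 and 0.13. *Stard4*, a sterol carrier and SREBP2 target, had the smallest p of this list, with 2231 and 2509 normalized counts in Bptf f/f and 1588 and 1618 in Bptf cKO (log2 difference -0.56, limma adjusted p = 0.0984). It is the gene that DESeq2 called, at an adjusted p of 0.0048, within a range of 0.00142 to 0.507 over the alternatives. *Srebf1*, which encodes SREBP1, was at -0.14 (limma adjusted p = 0.585).

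Of 9 genes for uptake and lysosomal release of cholesterol, 0 passed in limma, against 0.74% of all tested genes. DESeq2 called 1 of the 9, against 5.44%, and the median log2 difference was -0.11. *Mylip*, a ubiquitin ligase that degrades lipoprotein receptors and is an LXR target, had 659 and 529 normalized counts in Bptf f/f and 370 and 340 in Bptf cKO (log2 difference -0.73, limma adjusted p = 0.141, DESeq2 adjusted p = 0.0269, range over the alternatives 0.0043 to 0.677). *Scarb1*, the receptor for high-density lipoprotein, had 2087 and 2075 in Bptf f/f and 1716 and 1634 in Bptf cKO (-0.31, limma adjusted p = 0.224). Each of these genes had both Bptf cKO libraries below both Bptf f/f libraries, as did 23.8% of all tested genes. The lysosomal transporters *Npc1* and *Npc2* were at -0.11 and -0.029.

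**Figure D3:**
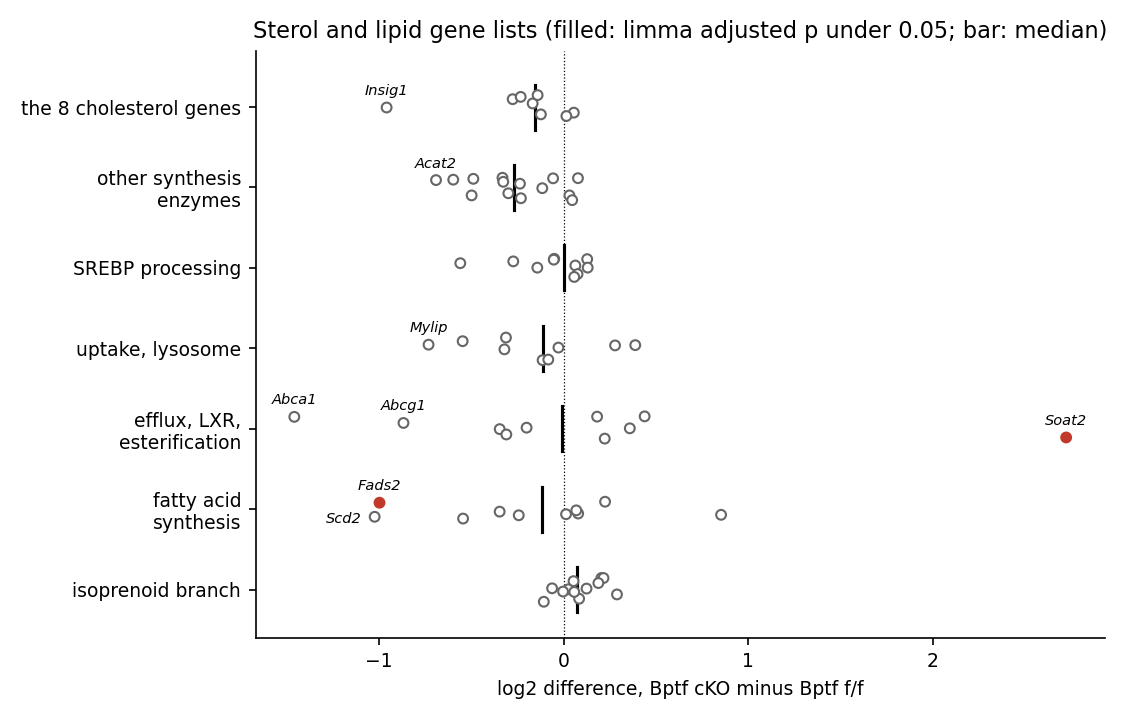
Log2 differences (x axis) of the genes in the 7 sterol and lipid lists (rows), with genes at a limma adjusted p under 0.05 as filled red points, all others as open points, and the list median as a black bar. *Soat2* at 2.72 and *Fads2* at -0.999 are the filled points, and *Insig1* at -0.96 is set apart from the other 7 of its list, which lie between -0.28 and 0.055.

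Outside the 8, 2 of 65 tested genes on the other lists passed the threshold in limma, 1 higher and 1 lower, against 0.37% of all tested genes in each direction. The higher gene was *Soat2*, on chromosome 15 from 102150526 to 102163469, which esterifies cholesterol for storage and secretion. It rose in Bptf cKO, where its libraries had 1220 and 1091 normalized counts against 234 and 129 in Bptf f/f. Both Bptf cKO libraries were far above both Bptf f/f libraries, 6.37-fold on the means, with a log2 difference of 2.72 (standard error 0.30, 95% interval 1.97 to 3.48, limma adjusted p = 0.0368). The call was lost without Bptf cKO replicate 1 (adjusted p = 0.172) or 2 (0.218) and in limma without the trend (0.147), and its lowest value was 2.38e-15 with DESeq2. Its paralog *Soat1*, the widely expressed enzyme, was at -0.31 (limma adjusted p = 0.340).

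The lower gene was *Fads2*, a fatty acid desaturase on chromosome 19 from 10062765 to 10101746. It fell in Bptf cKO, with 560 and 531 normalized counts against 1139 and 1044 in Bptf f/f, a log2 difference of -0.999 (standard error 0.12, limma adjusted p = 0.0450). The adjusted p of *Fads2* was 0.0504 in edgeR, 0.0514 with libraries recentred on their medians and 0.143 without the trend. When 1 library was left out it was 0.0899 and 0.0896 without Bptf f/f replicates 1 and 2, and 0.212 and 0.316 without Bptf cKO replicates 1 and 2, and the lowest of all alternatives was 9.92e-07 with DESeq2. The other 9 tested genes of the fatty acid list did not pass in limma. DESeq2 called *Scd2* as well as *Fads2*, and it called 5.44% of all tested genes. *Acaca* and *Fasn*, the carboxylase and synthase that build fatty acids, were at 0.012 and 0.068.

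*Abca1*, *Abcg1* and *Scd2* fall outside the rule for named genes and were chosen after their values were seen. *Abca1*, an exporter of cholesterol to lipid-poor apolipoprotein, had 933 and 747 normalized counts in Bptf f/f and 259 and 354 in Bptf cKO (log2 difference -1.46, limma adjusted p = 0.0647). *Abcg1*, an exporter to high-density lipoprotein, had 2139 and 2342 in Bptf f/f and 1109 and 1353 in Bptf cKO (-0.87, limma adjusted p = 0.0700). *Scd2*, a stearoyl-CoA desaturase, had 7859 and 9267 in Bptf f/f and 3766 and 4667 in Bptf cKO (-1.03, limma adjusted p = 0.0630). For each gene both Bptf cKO libraries lay below both Bptf f/f libraries, as for 23.8% of all tested genes. Each missed the threshold in limma as *Insig1* did. DESeq2 gave *Abca1*, *Abcg1* and *Scd2* adjusted p values of 1.83e-06, 6.31e-05 and 8.54e-07, and the highest values over the alternatives were 0.227, 0.272 and 0.238. The LXR genes *Nr1h2* and *Nr1h3* were at -0.35 (limma adjusted p = 0.305) and 0.44 (0.705). Their list of efflux, LXR and esterification genes, which also holds *Abca1*, *Abcg1* and *Soat2*, had a median log2 difference of -0.010. In it 5 of 10 genes were negative, against 49.8% of all tested genes, and 5 positive. Both Bptf cKO libraries lay below both Bptf f/f libraries for 5 of the 10 and above them for 4, against 23.8% and 23.2% of all tested genes.

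**Figure D4:**
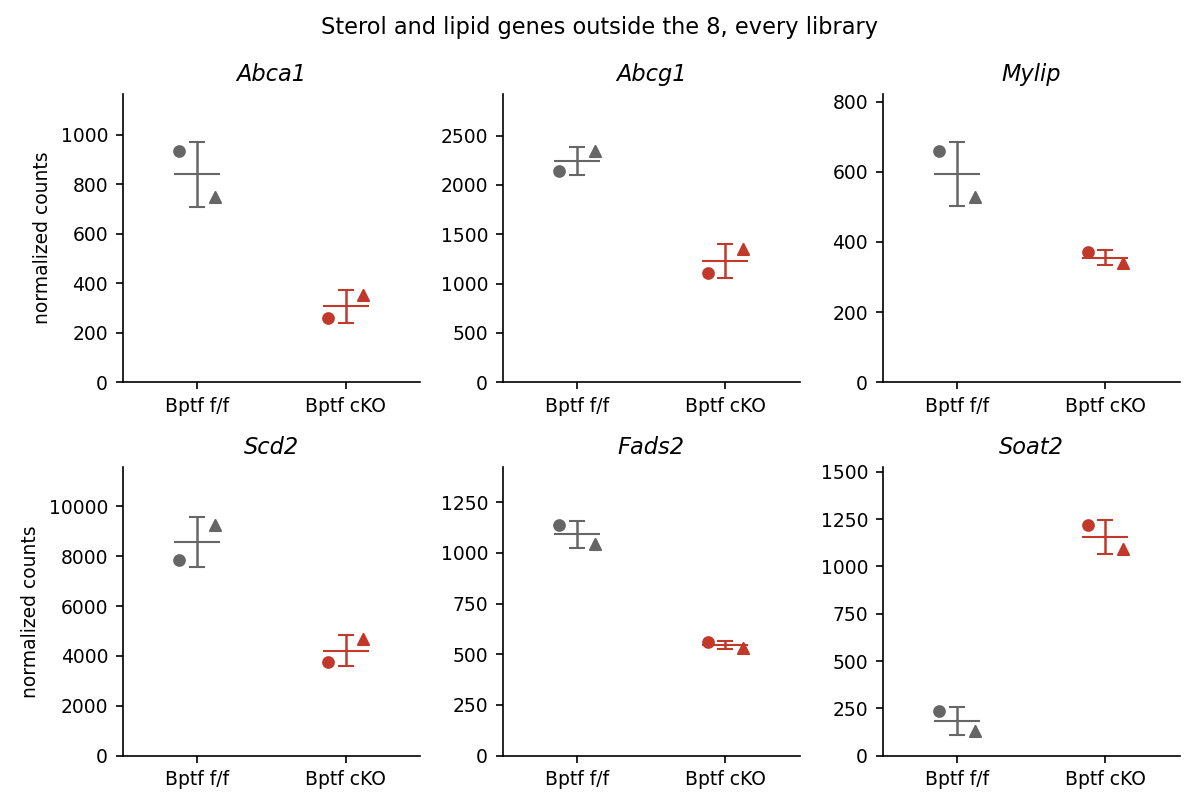
Normalized counts (linear axes from 0) of 6 sterol and lipid genes outside the 8 in Bptf f/f (grey) and Bptf cKO (red) LSK cells, with circles for replicate 1, triangles for replicate 2 and the mean ± SD of the 2 libraries as a bar with whiskers. In *Abca1*, *Abcg1*, *Mylip*, *Scd2* and *Fads2* both Bptf cKO libraries are below both Bptf f/f libraries, and in *Soat2* both are above.

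The isoprenoid branch, which leaves the pathway at farnesyl pyrophosphate, held 12 genes. In limma 0 passed, against 0.74% of all tested genes, and 0 had an unadjusted p under 0.05, against 8.96% lower and 6.79% higher. The log2 differences of the 12 ran from -0.11 (*Rabggtb*) to 0.29 (*Pdss2*), with a median of 0.070. *Dhdds*, of dolichol synthesis, had the smallest p of this list, at 0.20 (limma adjusted p = 0.466), followed by *Icmt*, a methyltransferase of prenylated proteins, at 0.19 (0.505). DESeq2 and edgeR also called 0 of the 12, against 5.44% and 0.633% of all tested genes.

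Likeness to the 8 genes was measured as the root mean square distance, on the log2 scale over the 4 libraries, from their mean profile after centring each gene. That mean includes *Insig1*, with a log2 difference of -0.96, while the other genes of the 8 lay between -0.28 and 0.055. Among the 65 tested genes of the other lists, *Lpcat3*, *Fads1* and *Scarb1* came nearest, at distances of 0.019, 0.046 and 0.055. Taken from *Insig1* alone, a comparison made after its values were seen, the nearest were *Fads2* (0.080), *Abcg1* (0.10) and *Scd2* (0.12). With 4 libraries such distances describe these samples and carry no test.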

How the data were processed

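RNA-seq of sorted LSK cells (2 Bptf cKO and 2 control libraries) was taken from a table in which the authors deposited a signal, gene counts scaled by library size factors. The table's other columns hold a mean and the authors' own comparison and were not used. The submitters' processing notes name HISAT2, featureCounts, DESeq2 and GRCm38 (mm10), and versions, strandedness and the treatment of multi-mapped reads are not given in the sources used here. Dividing by the smallest step of each library turned 100.0% of the values into whole numbers (tolerance 1e-06), which were taken as reads. The smallest total of any listed gene was 11 reads. The replicates are pools of mice, so p-values measure the spread between these pools, and with 2 libraries per genotype replicate spread limits precision.

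The 14858 genes whose normalized counts averaged 10 or more were compared as log2(value + 1) with limma 3.58.1 in R 4.3.3 (genotype as factor, with a mean-variance trend, two-sided, Benjamini-Hochberg over all tested genes, called at an adjusted p under 0.05). The log2 scale with a pseudocount understates changes of low genes. Alternatives were edgeR 4.0.16 and DESeq2 1.42.0 on recovered reads, a replicate block, other pseudocounts, filters and scalings, and each library left out. The fits were tested on simulated data drawn without a replicate effect, which cannot decide between the fits with and without the block. The labels do not say that libraries with the same number share animals. Figures and summaries used Python 3.11.15.

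The 8 genes and all gene lists were chosen with earlier results of these data known. Named genes were the 8, each called gene of the other lists or otherwise the 2 with the smallest p, and the 3 nearest profiles. Other list genes given with values (such as *Scap*, *Insig2*, *Srebf1*, *Npc1*, *Soat1*, *Nr1h2* and *Fasn*) were named outside this rule, for their known roles and after their values were seen. Of the fatty acid list, *Pnpla3* was below the filter. Some genes of the pathway, including some that the rule names, are not reported here. Gene positions and transcripts came from GENCODE vM21, promoters from RefSeq.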

Additional observations from a re-analysis of the deposited data

How the results depend on the processing

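Of the 8 cholesterol genes 1 (*Insig1*) was called by DESeq2, by limma with the replicate block and by edgeR with the replicate block, and 0 under the other 12 alternatives, those that left out a library included (0 to 0). Of the 65 tested genes on the other lists DESeq2 called 9, limma with the block 14, edgeR with the block 13, edgeR without it 1, limma on libraries recentred on their medians 1, limma without the trend 0, and limma with a library left out 0 to 1. Over all genes, against 110 in the main test, DESeq2 called 808, limma with the block 2138, edgeR with the block 2120, limma without the trend 2, and limma with a library left out 1 to 117. Deviations from the group means correlated at 0.452 between libraries of equal number (across 14858 genes), but nothing in the labels gives these 2 pairs a shared origin. *Bptf* lost its call in edgeR (log2 difference -0.76), with recentred libraries (-0.71), without the trend (-0.76) and with a library left out (-0.80 to -0.72). With a library left out, the log2 differences of 5 enzymes changed sign around 0: *Hmgcs1* (-0.0055 to 0.11), *Sqle* (-0.26 to 0.012), *Fdps* (-0.59 to 0.031), *Fdft1* (-0.31 to 0.026) and *Lss* (-0.070 to 0.099). *Idi1*, *Insig1* and *Srebf2* were negative under all 15 alternatives. Recentring moved all log2 differences by 0.052. A filter at a mean of 50 left *Fdps* out, and a library left out leaves its genotype with 1 sample, which is then assumed to vary like the other genotype. The cause of the difference between tests was not tested.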
